A study of Mus musculus with 3 samples.

Results

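The S100 genes encode small EF-hand calcium-binding proteins. The 10 described here are S100g, S100a1, S100a4, S100a6, S100a8, S100a9, S100a10, S100a11, S100a13 and S100b, and each was read by 1 of the 41174 different probes on a 2-colour Agilent mouse array. Probes were taken by the gene name in the scanner files, and all 10 genes were among the 17841 tested. The group was chosen with the ratios of knockout to control in these same data known, S100g being selected by its own ratio. The ratios below are therefore a description, without a test of the members.

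The knockout ovaries came from C57Bl/6J females with floxed Bmal1 alleles and a Cre recombinase under the Sf-1 promoter (Bmal1fxfxCresf-1, here cKO), and the control ovaries from females of the same strain with the floxed alleles and no Cre (Bmal1fxfx, which the labels also call wild type, here control). Bmal1 is the core clock gene Arntl, and SF-1, encoded by Nr5a1, is a nuclear receptor of steroid-producing cells, so the deletion is aimed at cells in which that promoter is or was active and not at every ovarian cell. On arrays 2 and 3 the genotype label of the cKO pool ends in 2 and 3 in place of 1; these pools were grouped by the sample titles. All females were 10 weeks old and were killed at Zeitgeber time 12, lights off, 3.5 days after copulation. Each of 3 arrays compared a pool of 3 cKO animals, in cy3, with a pool of 3 control animals, in Cy5, so a value of 1 array is a value of 2 pools and not of single animals.

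In most tissues S100 proteins form dimers that bind target proteins when calcium rises, and several are also secreted and act on receptors such as RAGE (Ager) and TLR4. S100g, a small vitamin D-dependent calbindin, is the exception in acting mainly as a cytosolic calcium buffer. It is known from intestinal calcium absorption and from the rodent uterus, where its transcript responds to oestrogen and progesterone.

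The probes of the 4 genes on which the description turns are shown as printed on the array, because each gene rests on 1 such 60-base probe and 1 spot per array. Capitals mark the only run of 10 or more bases that 2 probes of the family share, 12 bases common to S100a6 and S100b.
S100g: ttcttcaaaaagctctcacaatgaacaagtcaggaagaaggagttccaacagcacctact
S100a4: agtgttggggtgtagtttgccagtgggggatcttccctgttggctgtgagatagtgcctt
S100a6: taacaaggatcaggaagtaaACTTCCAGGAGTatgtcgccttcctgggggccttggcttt
S100b: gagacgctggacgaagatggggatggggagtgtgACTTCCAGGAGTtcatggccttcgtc

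The S100g probe shared at most 9 bases in a row with any other S100 probe and no run of 20 bases with any other probe of the array on either strand. No other member's probe shared a run of 20 bases with another probe, apart from that of S100a11. The S100a11 probe shared 46 bases in a row with a probe that has no gene name in the files, and that probe gave a mean log2 ratio of 0.25, so the S100a11 value may include RNA of a near-identical copy.

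The S100g promoter is shown because its gene had the highest mean ratio. The window holds 300 bases around the gene's start, most of them upstream (RefSeq, GRCm38.p6, chrX:162964550-162964849, minus strand). Capitals mark matches, on either strand, to the nuclear receptor half-site AGGTCA and to its extension CAAGGTCA, the SF-1 site, which contains the half-site.
S100g promoter: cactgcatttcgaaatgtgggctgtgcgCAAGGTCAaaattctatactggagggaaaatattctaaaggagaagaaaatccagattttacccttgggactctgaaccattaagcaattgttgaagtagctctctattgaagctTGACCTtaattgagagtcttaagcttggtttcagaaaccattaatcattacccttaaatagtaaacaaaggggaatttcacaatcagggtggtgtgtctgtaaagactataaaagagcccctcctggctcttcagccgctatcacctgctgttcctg

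The window held 2 half-sites, 1 of them within the CAAGGTCA match. Of 32851 promoter windows of the same length, 16.3% held a half-site and 1.56% held CAAGGTCA. The E-box CACGTG, the element bound by BMAL1 with CLOCK, was present in 7.15% of all windows and its variant CACGTT in 4.68%, and neither was in the S100g window. Among the 9 members with a window in the table, CACGTG occurred in S100a6 and S100a11, CACGTT in none, and the half-site in S100g, S100a4 and S100a11. The motifs were picked after the S100g ratio was known, and a match describes the letters only.

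The arrays differed little in detection. Spots well above background made up 67.4% to 69.1% in the cKO channel and 62.9% to 65.8% in the control channel, and replicate spots of 245 probes had a median SD of 0.141 to 0.190 on the log2 scale. Arrays 2 and 3 lay on one slide and array 1 on another. Across the genes tested, which are not independent replicates, the log2 ratios of array 1 had a Pearson's r of 0.601 with array 2 and 0.213 with array 3. Arrays 2 and 3, which share a slide, gave 0.00875. With the scanner software's ratios of all probes the values were 0.349, 0.0307 and -0.214. The luteal (10 of 10), granulosa (10 of 10) and oocyte (10 of 10) markers all passed the filter on dim probes. Arntl itself had log2 ratios of 0.27, 0.13 and -0.24 by 1 probe; the labels do not say which part of the gene is removed, so this checks neither deletion nor labels. Every cKO pool was in cy3, so genotype and dye cannot be told apart for any probe.

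S100g transcript was far higher in the cKO ovaries. Its spot signal, as scanned, was 4894, 1078 and 2637 units in the cKO channel of arrays 1 to 3, against 87.9, 80.4 and 92.7 units in the control channel, where the local background was 43.5, 45 and 42 units. The control signal was nearly the same on every array. It lay above the 95th percentile of 153 negative control spots, which was 52.9, 47.8 and 47.8 units in that channel, and was well above background on all 3 arrays by the scanner software. The 2 genotypes did not overlap, but S100g was selected by its ratio in these data. The share of all genes without overlap was not counted. Nothing is therefore read from a lack of overlap, for S100g or any other gene named below.

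After background correction, which adds 50 units to both channels, and loess normalisation, the S100g intensity was 4165, 1105 and 2508 in the cKO pools and 107, 124 and 117 in the control pools. Intensities of the cKO pools differed by up to 3.77-fold, with an SD of 0.97 on the log2 scale, and those of the control pools by up to 1.16-fold, with an SD of 0.11. The added units narrow the spread of dim spots. As spot signal less local background, the cKO pools differed by up to 4.66-fold and the control pools by up to 1.43-fold.

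The log2 ratio of cKO over control was 5.29, 3.16 and 4.43 on arrays 1 to 3, a mean of 4.29 ± 1.07 (SD, n = 3), or 19.6-fold. It was the highest mean ratio among all 17841 genes and ranked 1, 1 and 2 from the top on the single arrays. The scanner software's own ratios, without the added 50 units, were 7.0, 4.4 and 5.7, a mean of 5.68 ± 1.30 or 51.4-fold, at rank 2. Within the second slide, which holds arrays 2 and 3, it averaged 3.79, and with the slide as a term in the fit it was 4.54.

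**Figure D1:**
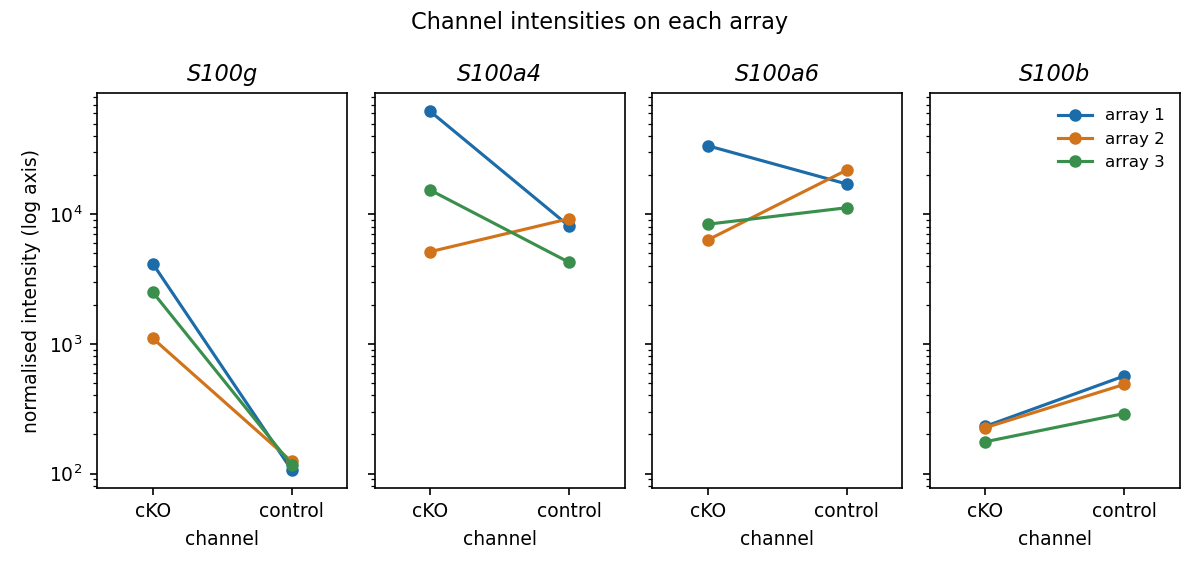
Normalised intensity (log axis) in the cKO and the control channel for S100g, S100a4, S100a6 and S100b; each line joins the 2 pools of 1 array. S100g fell between 1105 and 4165 in the cKO pools and between 107 and 124 in the control pools. Every S100g line falls from cKO to control, whereas the lines of S100a4 and S100a6 slope both ways.

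The fit across all genes gave few calls. In limma, 13 of the 17841 genes passed an adjusted p of 0.05 as higher (0.0729%) and 19 as lower (0.106%). Of the 10 members 0 passed and 3, S100g, S100b and S100a1, had an unadjusted p under 0.05, as did 12.3% of all genes. With the scanner software's signals, without the added 50 units, with the slide as a term or without array 2, 1 member passed, S100g in each case. Because the members were chosen from this contrast, nothing is read from these counts.

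The genes whose ratios on the 3 arrays lay nearest to those of S100g, by Euclidean distance over the 3 log2 ratios, were Spp1, Dner, Kcnmb4, Galntl5 and Adra2a. Spp1, which encodes the secreted phosphoprotein osteopontin, stood closest, at a distance of 1.41. Its ratios were 4.31, 2.36 and 5.06, a mean of 3.91 ± 1.39, and like S100g it was lowest on array 2. Dner, a Notch ligand, followed at 2.15, with 3.35, 2.63 and 3.67. The other three lay at 2.80 to 3.09. The measure rests on 3 arrays and takes in the size of the ratio.

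**Figure D2:**
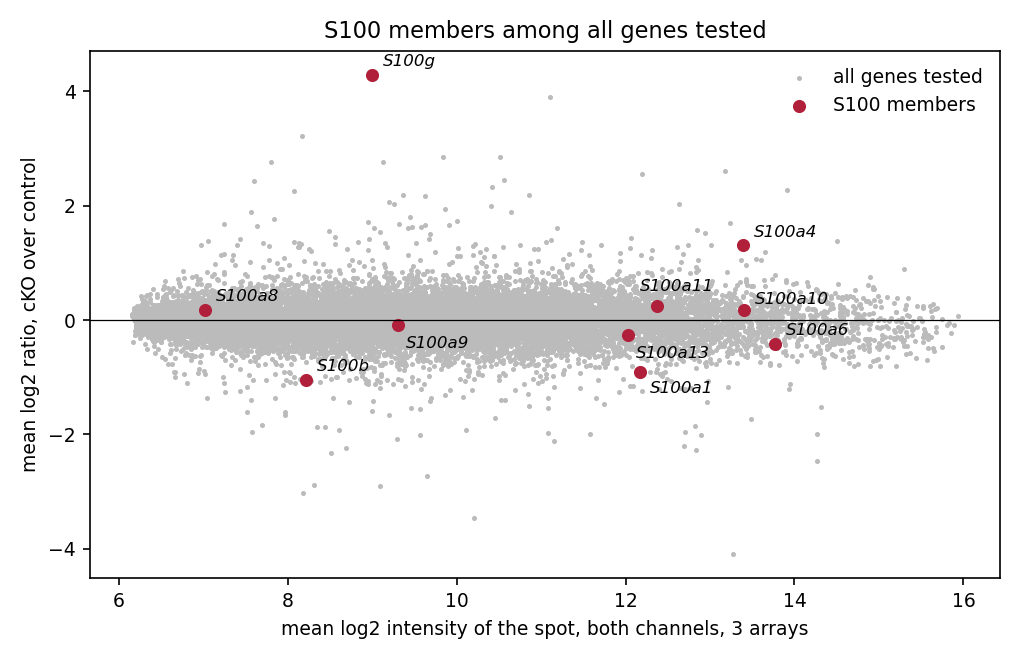
Mean log2 ratio of cKO over control (vertical) against mean log2 intensity (horizontal) for the 17841 genes tested, with the 10 S100 members named. S100g, at 4.29, stands above every other gene; S100a4 is at 1.32, and the remaining 8 members lie between -1.04 and 0.26.

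As a family the other members did not follow S100g. The median of the 10 mean ratios was 0.05, and -0.08 without S100g, against 0 for all genes tested. By array the median was 0.43, -0.23 and -0.01. Mean ratios were above 0 for 5 members and below 0 for 5. Ratios above 0 on all 3 arrays were found for 3 members, S100g, S100a10 and S100a11, where 17.5% of all genes did so. Ratios below 0 on all 3 were found for S100b, S100a1 and S100a13, where 17.8% of all genes did so. The remaining 4 had ratios of both signs, as did 64.8% of all genes.

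**Figure D3:**
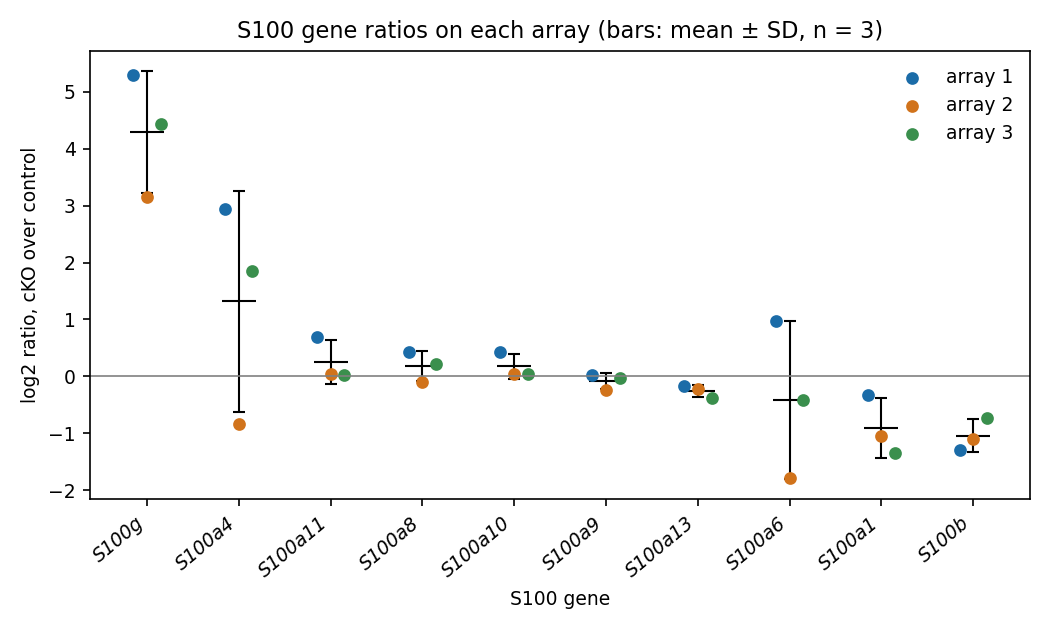
Log2 ratio of cKO over control for the 10 S100 genes, ordered by mean. Points are arrays 1 to 3 and bars are the mean ± SD (n = 3); S100g is high on every array, and S100a4 and S100a6 have the longest bars, 1.95 and 1.39.

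S100b, a glial and adipocyte protein that acts on RAGE when secreted, was the member with the lowest mean ratio. Its normalised intensity was 231, 226 and 176 in the cKO pools, against 566, 487 and 290 in the control pools. Every cKO pool was below every control pool. The log2 ratio was -1.29, -1.11 and -0.72, a mean of -1.04 ± 0.29, or 2.06-fold lower in cKO. The scanner software's signals gave -1.25 and the slide of arrays 2 and 3 gave -0.92. In a whole ovary, fewer cells of a type and less RNA per cell cannot be told apart, for this and every other gene.

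Markers of glia and nerve and of adipocytes, cell types known to make S100b, are given beside it. The median over the 5 glial genes tested was -0.09, -0.13 and -0.16 on arrays 1 to 3. Their summed intensity was 5249 to 7834 in the cKO pools and 6549 to 7108 in the control pools. The largest mean ratios were the receptor gene Erbb3 (0.38 ± 0.60), the myelin gene Mbp (-0.28 ± 0.51) and Sox10, the transcription factor of Schwann cells (-0.16 ± 0.03). Of 7 adipocyte genes 6 were tested, Lep being not well above background. Their median was 0.61, -0.19 and -0.36, and their summed intensity was 10051 to 21656 in the cKO pools and 9183 to 27322 in the control pools. In limma 0 genes of either list passed, and Plin1 and Lpl had an unadjusted p under 0.05, where 12.3% of all genes did. Both had positive ratios (0.69 ± 0.47 and 1.61 ± 0.47). The adipocyte genes next in size, Adipoq (-0.56 ± 0.87) and Cidec (-0.39 ± 0.99), had negative means. The part of these cells in the S100b value was not tested.

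S100a1, best known for calcium handling in heart and skeletal muscle, was also lower on every array. Its intensity was 3957, 3445 and 2752 in the cKO pools and 4958, 7098 and 6997 in the control pools, without overlap. The log2 ratio was -0.33, -1.04 and -1.35, a mean of -0.90 ± 0.52, with array 1 nearest to 0. With median centring the mean was -0.73. The scanner software's signals gave -0.02, -0.84 and -1.1 on arrays 1 to 3, a mean of -0.65, so array 1 was close to 0.

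S100a13, a carrier in the release of FGF1 and interleukin 1 alpha, lies next to S100a1 on chromosome 3. Its intensity was 4997, 4193 and 2593 in the cKO pools and 5640, 4908 and 3358 in the control pools, and the genotypes overlapped. Log2 ratios were -0.17, -0.23 and -0.37, a mean of -0.26 ± 0.10. With the scanner software's signals the ratio was 0.03, -0.08 and -0.24 on arrays 1 to 3, a mean of -0.10, and so not below 0 on every array. The mean was also -0.10 with median centring, which shifts the median of all genes by 0.12.

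S100a4, which binds non-muscle myosin and is found in motile mesenchymal cells and leukocytes, varied between the pools more than nearly any other gene. Its intensity was 62201, 5148 and 15367 in the cKO pools and 8102, 9245 and 4259 in the control pools. The lowest cKO pool was below 2 of the control pools, and the other cKO pools were above all of them. The log2 ratio was 2.94, -0.84 and 1.85, a mean of 1.32 ± 1.95, an SD that ranked 5 from the top among 17841 genes. The cKO spot of array 1 was saturated, so its ratio may be understated. The mean was 2.40 without array 2 and 0.50 without array 1.

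S100a6, calcyclin, which binds calcyclin-binding protein (Cacybp) and annexins, had the second widest spread. Its intensity was 33804, 6344 and 8386 in the cKO pools and 17138, 21937 and 11237 in the control pools, with overlap. On the log2 scale the ratio was 0.98, -1.79 and -0.42, a mean of -0.41 ± 1.39, and the SD ranked 46 from the top. The mean was 0.28 without array 2, of the opposite sign, and -1.11 without array 1. Most of the spread lay on the cKO side for both genes: cKO pools differed by at least 12.1-fold for S100a4, whose brightest spot was saturated, and by up to 5.33-fold for S100a6, and control pools by up to 2.17-fold and 1.95-fold.

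Ratios were highest on array 1 and lowest on array 2 for 6 of the 10 members, S100g, S100a4, S100a6, S100a8, S100a9 and S100a10, and for 7.71% of all genes tested. S100a10 is counted through 0.042 on array 2 against 0.045 on array 3, and S100a9 through 0.03 on array 1 against -0.03 on array 3. Both differences are smaller than the SD of replicate spots. The medians of 2 marker lists were also highest on array 1 and lowest on array 2, luteal cells (0.09, -0.41 and -0.23) and oviduct and uterine epithelium. Of the 8 oviduct and uterine genes 6 were tested, Pax8 and Muc1 being not well above background, and their median ratio was 1.03, -0.45 and 0.13. The summed intensity was 24832, 11244 and 12491 in the cKO pools and 13561, 16817 and 18838 in the control pools. Ovgp1, the secreted oviduct glycoprotein, had 1.25, -3.43 and 0.93, the cadherin Cdh1 had 1.38, -0.54 and 0.09, and Wfdc2 had 0.59, -0.45 and 0.18. The other three had another order, with the keratin Krt7 (0.81, -0.37 and -0.76) and the adhesion gene Epcam (1.28, -0.45 and -0.53) lowest on array 3 and Foxj1, of ciliated cells, highest there (0.14, -0.12 and 0.18). In limma 0 of the 6 passed, and 0 had an unadjusted p under 0.05. The part of such epithelium in the S100 values was not tested.

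Surface epithelium markers, 7 of 7 tested, had medians of 0.96, -0.12 and -0.49, with a summed intensity of 28583 to 64563 in the cKO pools and 31914 to 50503 in the control pools. Their largest mean ratios were Krt8 (-0.59 ± 0.63), Krt19 (-0.54 ± 1.20), Msln (0.54 ± 0.99) and Lgals7 (0.31 ± 0.80). Macrophage markers, 13 of 13 tested, had medians of 0.72, 0.52 and -0.46. The lysozyme gene Lyz2 (1.38 ± 1.01) and the Fc receptor gene Fcgr1 (0.74 ± 0.47) had the largest means. Only these 2 were above 0 on all 3 arrays, and Mrc1 (-0.32 ± 0.11) was below 0 on all 3. Cd68 (0.73 ± 1.30) and C1qa (0.61 ± 1.39) came next by size and were below 0 on array 3. The list summed to 32983 to 74958 in the cKO pools and 20528 to 31601 in the control pools. Such a sum is set mainly by the brightest genes of a list. On array 3 the macrophage sums were close, 32983 in cKO against 31601 in control, although the median ratio there was -0.46. Fibroblast markers, 10 of 10 tested, had medians of 0.38, 0.74 and 0.09. Col1a1 (1.02 ± 0.40) had the largest mean ratio. On all 3 arrays 6 genes were above 0, against 17.5% of all genes. Lum (-0.28 ± 0.23) was the 1 gene below 0 on all 3, against 17.8% of all genes, and Pdgfrb (-0.18 ± 0.54) had a negative mean. The fibroblast list summed to 41073 to 63461 in the cKO pools and 35892 to 40899 in the control pools. Over these 3 lists 0 genes passed in limma, and 6 had an unadjusted p under 0.05: Lyz2, Fcgr1, Col1a1, Col1a2, Col3a1 and Thy1, where 12.3% of all genes did. Their part in the S100a4 and S100a6 values was not tested.

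**Figure D4:**
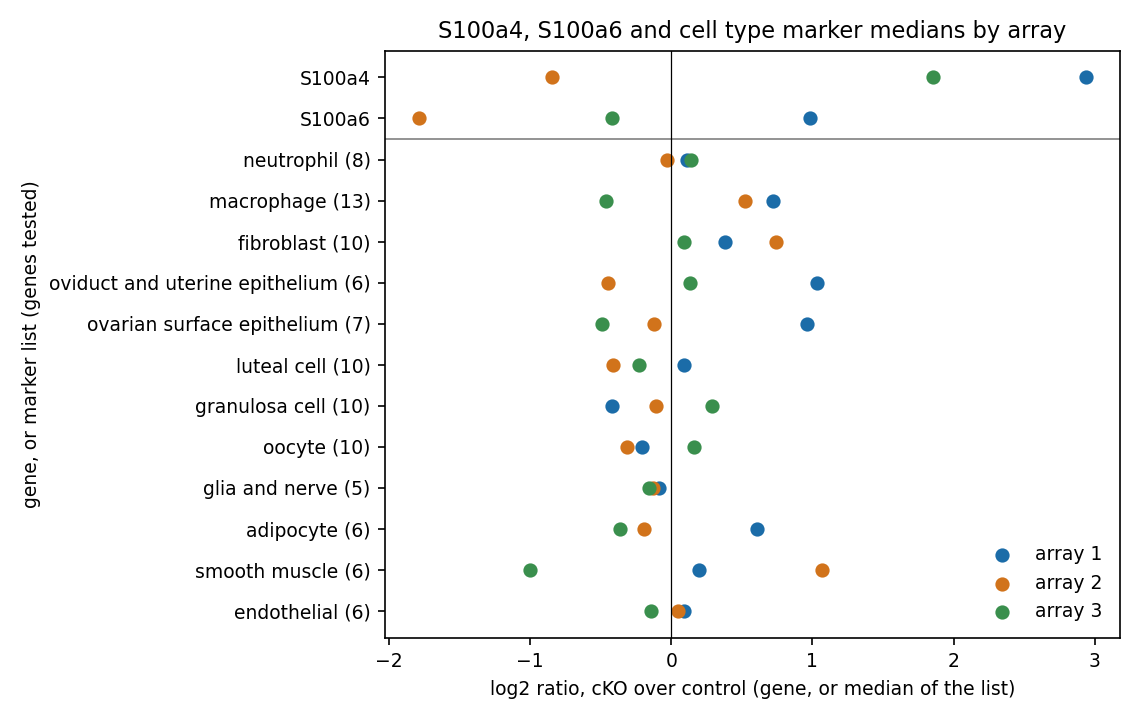
Log2 ratio of cKO over control on arrays 1 to 3 for S100a4 and S100a6 (top) and the median of each cell type marker list (below, genes tested in brackets). Array 2 is lowest for both genes, at -0.84 and -1.79, and for oviduct and uterine epithelium (-0.45), luteal (-0.41), oocyte (-0.31) and neutrophil markers (-0.03), but highest for fibroblast and smooth muscle markers.

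S100a8 and S100a9 encode the subunits of calprotectin, the abundant protein of neutrophils and a ligand of TLR4. S100a8 was dim, at 151, 119 and 146 in the cKO pools and 112, 127 and 126 in the control pools. Its log2 ratio was 0.43, -0.10 and 0.21, a mean of 0.18 ± 0.27, and -0.01 with the scanner software's signals. S100a9 was at 691, 608 and 549 in the cKO pools and 676, 719 and 562 in the control pools. Its log2 ratio was 0.03, -0.24 and -0.03, a mean of -0.08 ± 0.14, and 0.13 with median centring. For both genes the genotypes overlapped and the mean ratio was smaller than its spread.

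The probes of the neutrophil markers were dim in both genotypes. Of 13 genes 8 were tested; Ngp, Cxcr2, Mmp8 and Elane were not well above background, and Ly6g had no probe under its symbol. The summed intensity of the 8 was 856 to 1085 in the cKO pools and 865 to 929 in the control pools, and their median ratio was 0.11, -0.03 and 0.14. The largest mean ratios were Chil3 (0.37 ± 0.31), Lcn2 (0.24 ± 0.32), Mmp9 (-0.22 ± 0.59) and Csf3r (0.14 ± 0.42). In limma 0 passed, and 0 had an unadjusted p under 0.05.

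S100a10 and S100a11 had small mean ratios. S100a10, the annexin A2 partner p11, which has lost calcium binding, was at 13857, 11289 and 9705 in the cKO pools and 10251, 10963 and 9410 in the control pools. The genotypes overlapped. The log2 ratio was 0.43, 0.04 and 0.04, a mean of 0.17 ± 0.23. S100a11, which binds annexin A1, was at 6753, 5394 and 5291 in the cKO pools and 4165, 5218 and 5216 in the control pools. The genotypes did not overlap for S100a11, but the margin was small, 5291 in the lowest cKO pool against 5218 in the highest control pool. The share of all genes without overlap is not given, for this or any other gene named. Its log2 ratio was 0.70, 0.05 and 0.02, a mean of 0.26 ± 0.38. With the scanner software's signals it was 0.39, -0.24 and -0.32 on arrays 1 to 3, a mean of -0.06. Array 1 carried most of both means.

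Of the 10 members 8 lie on chromosome 3, with S100b on chromosome 10 and S100g on chromosome X. In gene order the 15 S100 genes of chromosome 3 begin with S100a1 and S100a13 and end with S100a11 and S100a10. Of these, S100a4 (1.32), S100a5 (-0.99) and S100a6 (-0.41) follow each other with mean ratios of both signs, while the neighbours S100a1 (-0.90) and S100a13 (-0.26), and S100a11 (0.26) and S100a10 (0.17), had the same sign.

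S100a5 is no member of the group but had the second lowest mean ratio of the family after S100b. Its spot signal was 46.2, 53.4 and 52.8 units in the cKO channel, against 146, 126 and 106 units in the control channel, and the genotypes did not overlap. The cKO spots were near a local background of 36.0 to 39.0 units. The log2 ratio was -1.06, -1.22 and -0.69, a mean of -0.99 ± 0.27 (limma, adjusted p = 0.189), and -2.71 ± 0.74 with the scanner software's signals. Its adjusted p in limma was 0.0403 without those units, and 0.0529 to 0.879 under the other alternatives. The other family genes tested, S100a3, S100a14 and S100a16, lay between -0.15 and 0.03, and S100a7a and S100a7l2 were not well above background in either channel.

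**Figure D5:**
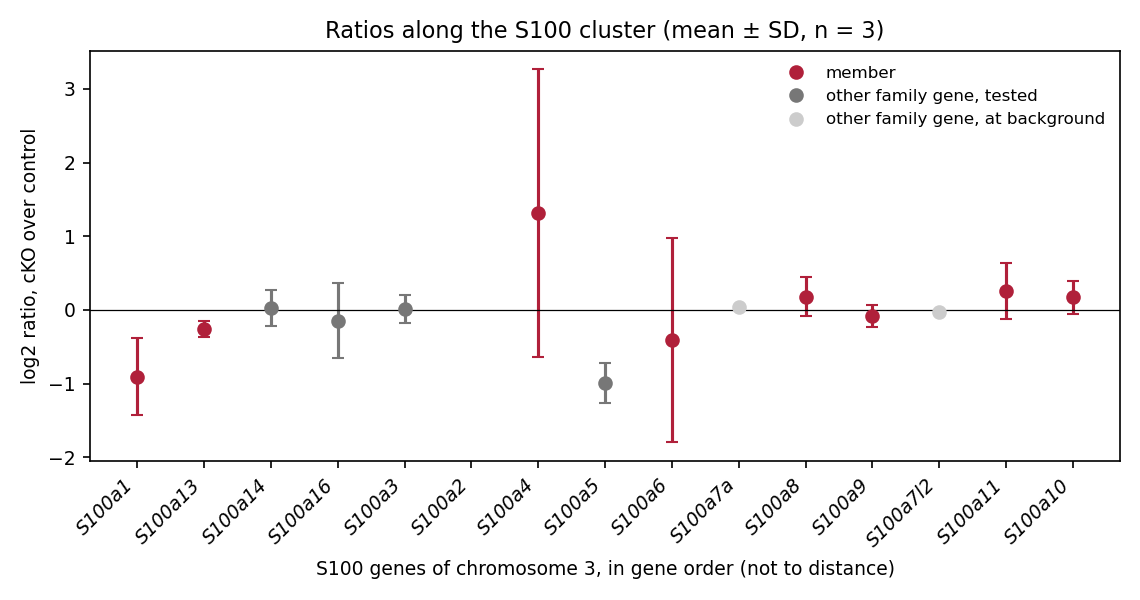
Mean log2 ratio of cKO over control ± SD (n = 3) for the S100 genes of chromosome 3 in gene order, with equal spacing; S100a2 has no probe under its symbol. Red points are members, dark grey points other tested genes and light grey points genes at background. The bars of the light grey points, S100a7a and S100a7l2, are very short (SD 0.008 and 0.018). S100a4, at 1.32, and S100a5, at -0.99, are neighbours.

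Receptors and binding partners of S100 proteins had ratios near 0 on the whole. Of 14 receptors and partners 12 were tested, the receptor Ager and the cargo gene Il1a being not well above background. Their median ratio was 0.05, against 0 for all genes. On all 3 arrays 2 were above 0 and 0 below, where 17.5% and 17.8% of all genes were. The largest mean ratios were the S100a6 partner Anxa11 (-0.66 ± 0.70), Cacybp (-0.34 ± 0.63), the S100a9 receptor Bsg (-0.32 ± 1.30) and the myosin Myh9 (0.29 ± 0.15). In limma 0 passed, and 0 had an unadjusted p under 0.05.

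The genes of calcium transport and hormone response with which S100g is usually discussed did not share its size of difference. Of 12 genes 8 were tested; the vitamin D hydroxylase Cyp24a1, the calcium channel Trpv5 and the progesterone receptor Pgr were not well above background, and Atp2b4 had no probe under its symbol. Their median ratio was 0.15. The oestrogen receptor Esr1 was at -0.59, -0.90 and -1.12, a mean of -0.87 ± 0.26. Esr1 was lower on every array. The retinoid receptor Rxra was at 0.49 ± 0.20, the vitamin D receptor Vdr at 0.42 ± 0.70 and the channel Trpv6 at 0.33 ± 0.63. In limma 0 of the 8 passed, and Rxra and Esr1 had an unadjusted p under 0.05, where 12.3% of all genes did.

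Other EF-hand genes, 13 tested of 16, had a median ratio of 0.03. On all 3 arrays 4 were above 0 and 3 below 0, where 17.5% and 17.8% of all genes were. The largest mean ratios were the mitochondrial protein gene Efhd1 (-1.06 ± 0.57), Cib1 (-0.41 ± 0.11), the calmodulin gene Calm3 (-0.36 ± 0.21) and Hpcal1 (-0.31 ± 0.58). Calb2, Pvalb and Ocm, which encode calretinin, parvalbumin and oncomodulin, were not well above background. In limma 0 passed, and Cib1 and Efhd1 had an unadjusted p under 0.05, where 12.3% of all genes did.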

How the data were processed

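Intensity values of spots and local background were deposited as scanned; the file headers name Feature Extraction 9.1.3.1. The deposited processed intensity values had local background subtracted and were detrended and dye-normalised, and the deposited log10 ratios are of red (control) over green (cKO), per the file headers; they were turned to log2 of cKO over control. The series' value table holds the same log10 ratios (largest difference 0, median 0 on each array).

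Mean signals were corrected with normexp (offset 50) and loess in limma 3.58.1 under R 4.3.3, control spots at weight 0 and spots with outlier flags left out. Probes well above background on all 3 arrays in at least 1 channel were kept, the brightest per gene. Ratios were tested against 0 with lmFit and eBayes, Benjamini-Hochberg over 17841 genes; the code was tested on simulated data. Channel intensities were Aquantile-scaled. Genes were named through RefSeq (GRCm38.p6), 26788 of 43379 spots by accession. Replicates are arrays. Their p-values rest on the spread of the cKO over control ratio between 3 pairs of pools, and not on the spread of pools within a genotype. Members, lists and motifs were chosen with earlier results of these data known. Text names all members, other tested family genes, up to 4 genes per list by size of mean ratio, further genes where a count asks for them, and the 5 genes nearest to S100g. Luteal, granulosa, oocyte, endothelial and smooth muscle lists serve as checks; their median ratios were -0.17, -0.07, -0.14, -0.10 and -0.03, with Star the 1 gene called, as lower. Of the cell type marker lists, 1 gene is not reported here.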

Additional observations from a re-analysis of the deposited data

How the results depend on the processing

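Against 13 genes called higher and 19 called lower in cKO by limma (40.6% higher), the scanner software's processed signals gave 27 and 26 (50.9% higher), a normexp offset of 0 gave 29 and 30, and the slide as a term gave 26 and 22. The random slide effect could not be estimated. Median centring gave 0 and 1 (2315 and 420 at an unadjusted p under 0.05), scaling to a common spread 0 and 0 (1090 and 1206), no filter on dim probes 0 and 0 (1528 and 1653), and arrays 2 and 3 alone, which share a slide, 0 and 1 (352 and 418). Leaving out each array in turn gave 0 to 11 higher and 0 to 10 lower: 11 and 10 without array 2, 0 and 1 without array 1, which is the same as arrays 2 and 3 alone, and 0 and 0 without array 3 (2268 and 2507 at an unadjusted p under 0.05). The cause was not tested. S100g moved by more than its SD under 1 alternative, to 5.68 with the processed signals, and otherwise lay between 3.79 and 5.13. The median over the members ranged from -0.05 to 0.26. Of 99 single-member alternatives 96 stayed within 1 SD, and S100a13 under 2 and S100a9 under 1 did not. Leaving out 1 of 3 arrays, or fitting the slide as a term, cannot move a mean by its own SD. The alternatives on dim probes and on the mean over probes change nothing for members with 1 probe. The count is therefore no measure of stability. Without array 2 S100a6 was at 0.28, of the opposite sign to its main value of -0.41, yet counts as within 1 SD. The test is already paired by array, because each ratio compares a cKO pool with the control pool on the same array. No further pairing was possible with 1 group of arrays. Signal over background limits S100g, S100a8 and S100a5, whose dim channel lies near it.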
